A study of Mus musculus with 19 samples.

Results

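Embryonic limb buds of mice that lack an element called ZRSreg were set against wild type limb buds, to ask which contacts of the Shh region are still present without the limb enhancer element. The ZRSreg deletion was made by CRISPR-Cas9 in the G4 strain and was measured at E10.5 in 2 samples, which the series' design text gives as technical replicates. The wild type was the C57BL/6 strain, also at E10.5, with 3 samples, of which 2 bear the same library number and which the design text counts as 2 biological replicates. These are 5 of the 19 samples of the series. The genotype of 1 of the mutant samples is spelled delta-RSreg in its label, while its title carries the name ZRSreg. Both groups were whole dissected limb tissue, so each contact is an average over all cells of the bud, and contact in fewer cells cannot be told apart from weaker contact per cell. Strain differed along with genotype, and the effect of one cannot be told apart from that of the other. Another limb map, from G4 embryos with a deletion of the Lmbr1 promoter (2 samples), is therefore given beside the results as a second map from the same strain, although that map carries a deletion of its own. Limb and midbrain maps with other deletions, and wild type midbrain, are also used below, all at E10.5. Wild type embryonic stem cells, whose sample titles name G4, are given for scale.

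Shh encodes Sonic hedgehog, the secreted signal that patterns the limb from the thumb side to the little finger side. Its limb enhancer, the ZRS, lies in an intron of Lmbr1, a gene at the far end of the same regulatory domain, and is required for Shh expression in the posterior limb bud. The promoter and the enhancer meet across a long gene desert, and binding sites of CTCF, a protein that anchors chromatin loops, lie near both ends. Capture Hi-C counts how often 2 fragments of a chosen region are ligated to each other after crosslinking, and so reports on their spatial proximity.

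The maps covered 2.8 Mb of chromosome 5 (27800001 to 30600000, mm9) in 280 bins of 10 kb, which gives 39340 pairs of bins. In the order of the reference gene table, Insig1, En2, Cnpy1 and Rbm33 precede Shh, and Rnf32, Lmbr1, Nom1 and Mnx1 follow it. Distances here run from the bin that holds most of the Shh promoter (28790001 to 28800000), with negative values below it on the chromosome. The promoter was taken as that bin and the one before it, the ZRS window as the 5 bins at 830 to 870 kb (29620001 to 29670000), and the Shh domain as the 93 bins between the insulation minima at -30 and 910 kb. The labels give neither the position nor the length of the ZRSreg deletion, and the window and its 850 kb bin were placed from the known distance between promoter and ZRS, not from an annotation. Contact over expected divides the deposited signal of a pair by the map's own mean signal at that separation, so a value of 1 is the average for that distance.

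Only 1 merged map per group was used, so no spread between replicates and no test between groups could be had. The ZRSreg map held 2544793 recovered contacts, against 2862106 in the wild type map. The 95% intervals given below cover counting error only, and leave out any difference between embryos, libraries or strains. Contacts under 50 kb made up a larger share in ZRSreg, with 21.5% under 10 kb and 29.3% at 10 to 50 kb, against 20.3% and 27.0% in wild type. The Lmbr1 promoter deletion map had 23.2% and 29.5% in the same classes. Contact over expected is scaled by separation and does not carry this difference, while contact counts and the promoter's shares below do.

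The label of the deletion was first checked at the 850 kb bin, where the ZRS was placed. A bin that has lost sequence has fewer fragments to ligate, and balancing would hide such a loss, so contact counts were used. The 850 kb bin had 17794 contacts with other bins in ZRSreg and 22956 in wild type limb. Relative to the 3 bins on each side this was a log2 value of 0.44 in ZRSreg and 0.65 in wild type, a difference of -0.21 (95% counting interval -0.24 to -0.18). The other map with this deletion, from limbs that also lack the i4i5 sites (CTCF sites beside the ZRS), had 0.49, and the 7 maps without a ZRSreg deletion lay between 0.53 and 0.95. Both maps of the deletion thus had the lowest values of the 9 maps, although the gap to the Lmbr1 promoter deletion, at 0.53, was small. The difference at 850 kb was the fourth lowest of 274 bins, after bins at 130, 1600 and -470 kb, and the SD over all bins was 0.086. The main promoter bin came next, with a difference of -0.21 (-0.23 to -0.18). Balancing brings every bin to the same total, so the main promoter results are also given without balancing, a choice made after the values were seen for all but the ZRS window.

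The promoter still met the ZRS window in the mutant, above the average for its distance in the whole region. Contact over expected was 7.05 in ZRSreg (6.67 to 7.44, from 1288 contacts) and 6.49 in wild type (6.17 to 6.82, from 1574 contacts). The log2 ratio was 0.12 (0.01 to 0.23), a level 8.60% higher in the mutant. The ratio turned to -0.06 when counts without balancing were scaled the same way, so no direction is read from it. The size of the level depends on which pairs set the expected value, and with pairs inside the domain alone it was 1.44 in ZRSreg and 1.42 in wild type. The Lmbr1 promoter deletion map had 6.87. For scale, the i4i5 deletion limb map had 2.58 and the limb map with both the i4i5 and ZRSreg deletions had 3.05, and wild type midbrain had 6.61.

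Within the window, the bin at 850 kb had a lower value in the mutant, by an amount that depends on the balancing. Promoter contact with the 850 kb bin was 5.61 in ZRSreg (291 contacts) and 6.38 in wild type (483 contacts), or -0.18 as a log2 ratio (-0.40 to 0.03). Without balancing it was 7.20 and 10.3, and the log2 ratio was -0.51 (-0.72 to -0.30), at a bin whose own coverage was lower in the mutant. The part of that coverage in the difference was not tested. It was lower in the mutant for each of the 2 promoter bins, with 6.64 against 7.24 for the bin at -10 kb and 4.58 against 5.52 for the main bin. The other 8 pairs of the window were all higher in the mutant in balanced signal. The counting interval of the ratio held 0 for each of the 10 single pairs. They share bins, so their directions are not independent.

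The neighbours of that bin were higher in the mutant in balanced signal. At 860 kb promoter contact was 7.95 in ZRSreg and 6.66 in wild type (log2 ratio 0.26, 0.04 to 0.47). At 870 kb it was 7.55 and 6.27, with an interval from -0.03 to 0.57. At 830 kb it was 7.91 and 7.54, and at 840 kb 6.22 and 5.61, both with intervals that held 0. Without the 850 kb bin, a choice made after these values were seen, the window had 7.41 in ZRSreg and 6.52 in wild type. Without balancing, the log2 ratio was 0.16 at 860 kb and 0.10 for the window without the 850 kb bin, and both intervals held 0.

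**Figure D1:**
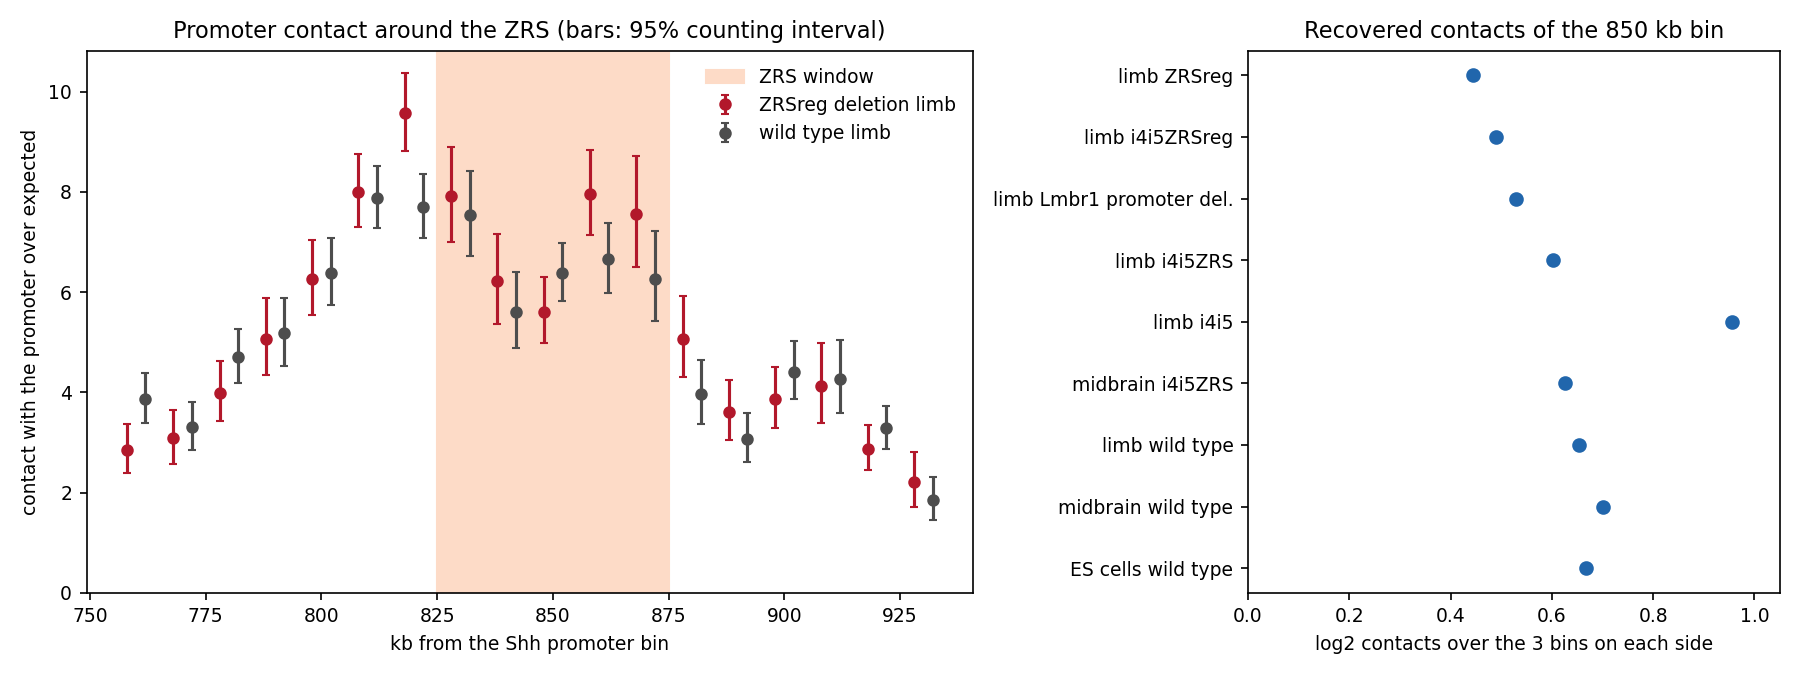
Left, contact over expected between the Shh promoter (2 bins) and each 10 kb bin from 760 to 930 kb, in ZRSreg deletion limb (red) and wild type limb (grey), with 95% counting intervals and the ZRS window shaded. The 850 kb bin has 5.61 in ZRSreg and 6.38 in wild type, and the red points at 820, 860 and 880 kb lie above the grey ones. Right, log2 of the 850 kb bin's contacts over the mean of the 3 bins on each side in all 9 maps, with limb ZRSreg at 0.44 and limb wild type at 0.65.

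Outside the window the highest promoter contact beyond 500 kb lay just below it in both maps. The ZRSreg profile peaked at 820 kb (29610001 to 29620000) with 9.56, where wild type had 7.69 (log2 ratio 0.31, 0.15 to 0.48, and 0.27, 0.10 to 0.44, without balancing). The wild type profile peaked 1 bin lower, at 810 kb, with 8.0 in ZRSreg and 7.88 in wild type. The Lmbr1 promoter deletion map also peaked at 820 kb, with 8.84. Above the window, the 880 kb bin had 5.07 in ZRSreg and 3.98 in wild type (log2 ratio 0.35, 0.02 to 0.68), but without balancing the interval held 0.

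Further local maxima of the promoter profile were present in both maps. A local maximum inside the desert at 570 kb had 4.87 in ZRSreg and 3.77 in wild type (log2 ratio 0.37, 0.12 to 0.62), and the Lmbr1 promoter deletion map had 4.67 there. At 730 kb contact was 4.51 in ZRSreg and 4.37 in wild type. Beyond the upper border, a maximum at 1000 kb had 6.51 in ZRSreg and 5.50 in wild type (log2 ratio 0.24, 0.00 to 0.48). Without balancing, the log2 ratios at 570 and 1000 kb were 0.25 and 0.05, with intervals that held 0. These bins were picked from the profile for their height, after its values were seen.

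Across the 86 bins of the domain at 50 kb or more from the promoter, 43 were higher in ZRSreg and the median log2 ratio was 0.01. The lowest was the bin at 500 kb, with 1.28 in ZRSreg (60 contacts) and 2.26 in wild type (139 contacts). The highest was the bin at 610 kb, with 2.64 (54 contacts) and 1.77 (43 contacts). Over 271 bins at 50 kb or more, the log2 profiles of both maps had a Pearson correlation of 0.92, which describes neighbouring bins of 1 locus measured in single maps and carries no test. By zones, promoter contact with the middle of the desert (320 to 530 kb) was 1.497 in ZRSreg and 1.602 in wild type, a change of -6.58%. The near zone (100 to 310 kb) had 0.885 and 0.886, and the far zone (540 to 750 kb) had 2.64 and 2.55. Without balancing all 3 zones were lower in the mutant, with log2 ratios of -0.18 for the near, -0.25 for the middle and -0.11 for the far zone. These values carry the lower coverage of the main promoter bin in the mutant, a log2 difference of -0.21. Its part in them was not tested.

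**Figure D2:**
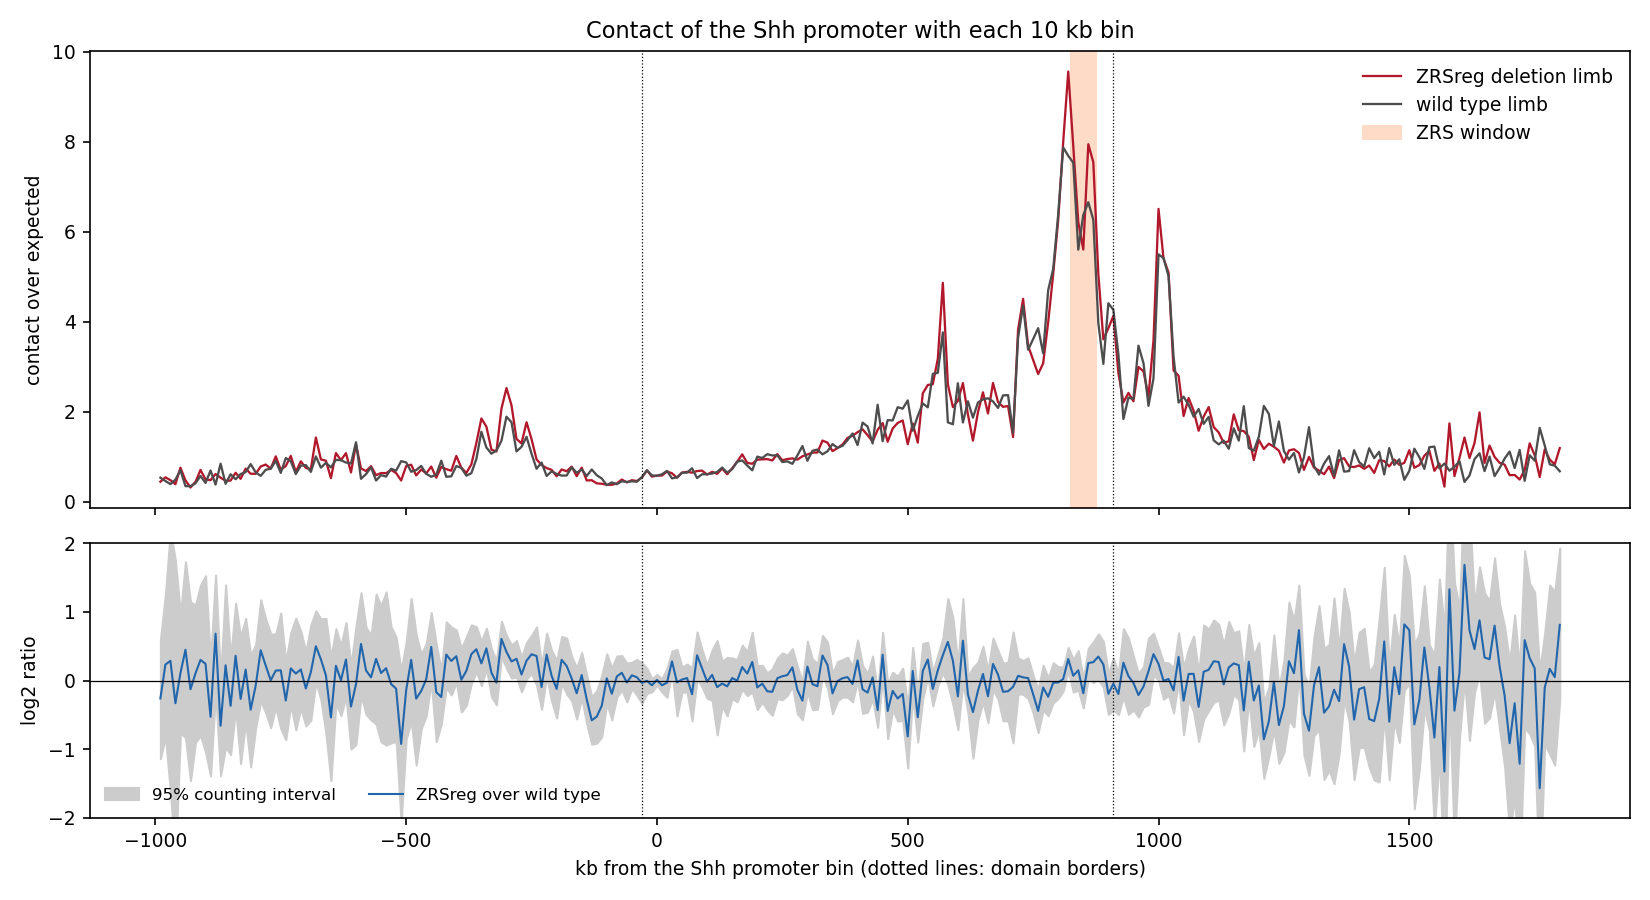
Top, contact over expected between the Shh promoter and each 10 kb bin in ZRSreg deletion limb (red) and wild type limb (grey), against distance in kb, with the ZRS window shaded and the domain borders dotted. Bottom, log2 ratio of ZRSreg over wild type (blue) with its 95% counting interval (grey). Both profiles climb across the desert to peaks at 820 kb (9.56, ZRSreg) and 810 kb (7.88, wild type), and the intervals widen beyond 1000 kb.

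The shares of the promoter's contacts differed by little. Of its contacts at 20 kb or more, 46.2% reached beyond 500 kb in ZRSreg (45.6% to 46.8%, Wilson) and 45.4% in wild type (44.8% to 45.9%). The difference was 0.840 percentage points (0.0588 to 1.62), and -0.42 when the Lmbr1 promoter deletion map took the place of wild type. The ZRS window received 4.66% (4.42% to 4.92%) in ZRSreg and 4.38% (4.17% to 4.59%) in wild type. Contacts inside the domain made up 55.7% in ZRSreg and 56.9% in wild type.

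Over all pairs, the spread of the log2 ratio was near the one that counting error gives. Of 37950 pairs at 50 kb or more, 18217 had at least 40 contacts in both maps together. Of these, 798 were at least 1.5-fold higher in ZRSreg (4.38%) and 831 at least 1.5-fold lower (4.56%), and 91.1% lay within 1.5-fold. The SD of the log2 ratio was 0.34, where counting error alone gives 0.33, and at 400 contacts or more it was 0.15 against 0.13. Of the 18217 pairs, 10613 had 40 to 100 contacts, so the SD over all pairs is set mostly by shallow ones and could hide smaller differences. The share past 1.5-fold in either direction shrank with depth, with 14.2% at 40 to 100 contacts, 2.55% at 100 to 200, 10 of 2400 pairs at 200 to 400 and 1 of 807 pairs at 400 or more. The single pair at that depth joined the main promoter bin to the 440 kb bin, with 1.67 in ZRSreg (122 contacts) and 2.51 in wild type (283 contacts).

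The main promoter bin recurred among the deepest of these pairs. Of the 11 pairs past 1.5-fold with 200 contacts or more, 6 held it. It was higher with the bins at -260, -280, -310 and -340 kb, and lower with those at -130 and 440 kb. For the bin at -340 kb contact was 1.84 in ZRSreg and 1.09 in wild type, and for the bin at -130 kb it was 0.485 and 0.858. The Lmbr1 promoter deletion map had 1.13 at -340 kb and 0.566 at -130 kb. Coverage of the main promoter bin was lower in the mutant, and the part of coverage and balancing in these calls was not tested. Without balancing, none of the 4 higher pairs passed 1.5-fold (log2 ratios 0.28 to 0.43), while both lower pairs did, at -1.23 and -0.91. The other 5 pairs joined bins inside the domain, with 4 higher and 1 lower in the mutant. The one with the highest ratio, between 250 and 470 kb, had 1.67 in ZRSreg and 0.974 in wild type.

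Shares by position depend on depth, which was higher for the promoter, with a median of 132 contacts in both maps together against 84 for all pairs. Pairs of the promoter with any bin counted 18 higher (4.95%) and 19 lower (5.22%) of 364. At 100 to 200 contacts 7 of 136 promoter pairs passed 1.5-fold (5.15%), against 2.55% of all pairs, and at 200 to 400 contacts 5 of 86 did (5.81%), against 0.417%. Pairs of the ZRS window counted 38 higher (4.42%) and 33 lower (3.84%) of 860, with 2.37% past 1.5-fold at 100 to 200 contacts. None of the 10 pairs between promoter and window passed 1.5-fold. Their median was 296 contacts, a depth class in which 0.417% of all pairs did, so this count says little about them. Inside the domain, where counts are deeper, 72 of 3689 were higher (1.95%) and 64 lower (1.73%).

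**Figure D3:**
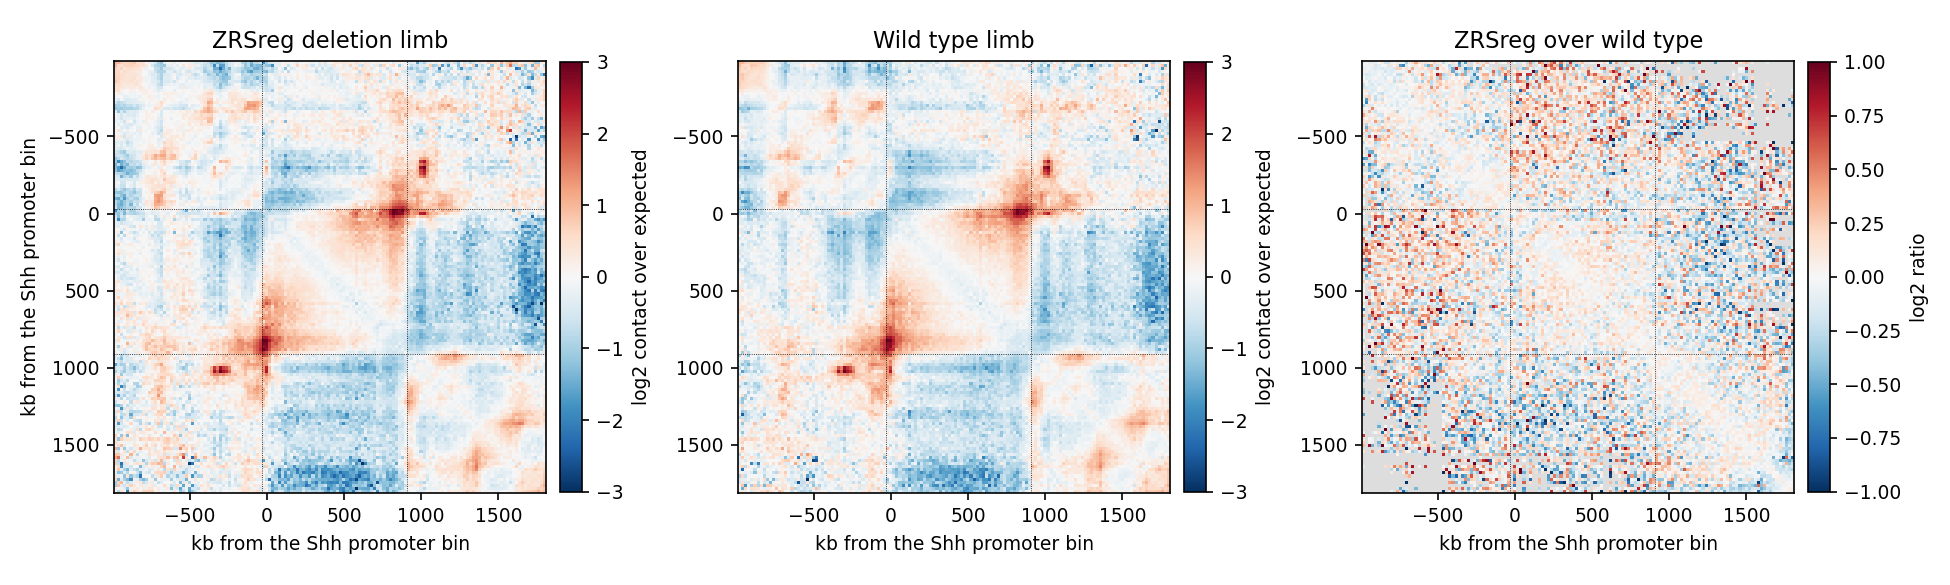
Contact over expected (log2) of the whole region in ZRSreg deletion limb (left) and wild type limb (centre), in squares of 20 kb, and the log2 ratio of ZRSreg over wild type (right). Both axes give kb from the Shh promoter bin, dotted lines mark the domain borders, and grey squares in the right panel have under 40 contacts in both maps together. Domain, corner and border appear in both maps, and the ratio has most of its scatter at long distance, where counts are low.

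Contacts enriched in another wild type tissue were then followed in both limb maps. Wild type midbrain, a tissue that is not limb and was not used in the comparison, had 1844 pairs at 100 kb or more with at least 2 times the expected contact. Of these, 907 (49.2%, 46.9% to 51.5%) passed the same level in ZRSreg limb and 920 (49.9%, 47.6% to 52.2%) in wild type limb, and 725 passed in both. Within the domain it was 394 in ZRSreg and 386 in wild type of 601. Between the promoter and the domain it was 63 and 66 of 81. Of the 798 pairs with neither bin in the domain, 270 passed in ZRSreg and 283 in wild type, at medians of 16 and 18 contacts. The mean contact over expected of the 1844 pairs was 2.19 in ZRSreg and 2.16 in wild type, at medians of 30 and 37 contacts. The shares that passed depend on depth. With at least 40 contacts in both maps together they were 67.45% in ZRSreg and 69.0% in wild type, of 1192 pairs. Because the intervals treat pairs as independent, which neighbouring bins are not, they are too narrow.

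The strongest midbrain pairs included some near the promoter and the ZRS window and some that span the domain. Loops were not called, and no pair was set against its local surroundings. The pair from -20 kb to 820 kb, beside the promoter and the ZRS window, had 12.1 in ZRSreg (115 contacts) and 9.96 in wild type (110 contacts). From -20 kb to 870 kb, across the far end of the window, contact was 10.6 in ZRSreg and 10.4 in wild type. A pair that spans the whole domain, from -300 kb to 1010 kb, had 13.1 (248 contacts) and 11.5 (269 contacts). Its neighbour from -350 kb to 1010 kb had 8.47 and 7.64. The counting interval of the ratio held 0 for each of these 4 pairs.

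Of the other 6 strongest pairs, the promoter bin at -10 kb took part in 2. It had 6.03 in ZRSreg and 5.31 in wild type with 1010 kb, and 5.24 and 4.11 with 730 kb. The pair from 20 kb to 610 kb had 2.47 in ZRSreg (10 contacts) and 3.15 in wild type (15 contacts). The remaining 3 rested on 4 or 5 contacts in midbrain and on at most 2 in either limb map, and nothing is read from them.

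Contact within the domain as a whole differed by about 1%. Mean contact over expected within it was 1.45 in ZRSreg and 1.43 in wild type, 1.23% higher in the mutant (log2 ratio 0.02, 0.01 to 0.02). The Lmbr1 promoter deletion map, with 1.46, lay above both, so the sign of that difference depends on the map compared with. Contact of the ZRS window with the interior of the domain (100 to 750 kb) was 1.46 in ZRSreg and 1.43 in wild type, with a log2 ratio of 0.03 (-0.00 to 0.05). The 850 kb bin alone had 1.38 with the interior in ZRSreg and 1.39 in wild type. Among 61 pairs of zones, the log2 ratio ran from -0.18 to 0.21 and none passed 1.5-fold.

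Contact of the domain with the 500 kb above the upper border was lower in the mutant. The domain's contact with the 500 kb above the border was 0.680 in ZRSreg and 0.715 in wild type, a change of -4.83% (log2 ratio -0.07, -0.08 to -0.06). It was 0.729 in the Lmbr1 promoter deletion map, further from ZRSreg than wild type was. The change was -8.02% for the near zone of the desert, -6.10% for the middle zone and -3.03% for the far zone. Of 1987 pairs in this block 97 were at least 1.5-fold higher (4.88%) and 170 lower (8.56%), against 4.38% and 4.56% of all pairs. The block was shallower, with a median of 58 contacts in both maps together against 84. Of all pairs at 40 to 100 contacts, 14.2% passed 1.5-fold in either direction. The ZRS window's own contact with that side was 0.685 in ZRSreg and 0.717 in wild type. The strip at the border itself (880 to 910 kb) had 1.060 and 1.062 with that side. With 300 kb in place of 500 kb above the border, the domain's log2 ratio was -0.04. Pairs that join the 500 kb below the domain to the 500 kb above it were also lower, with 1.28 in ZRSreg and 1.32 in wild type. Across the lower border, the domain's contact with the 500 kb below was 0.973 in ZRSreg and 0.956 in wild type, 1.75% higher. That sign turned, to a log2 ratio of -0.01, with 300 kb in place of 500 kb.

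**Figure D4:**
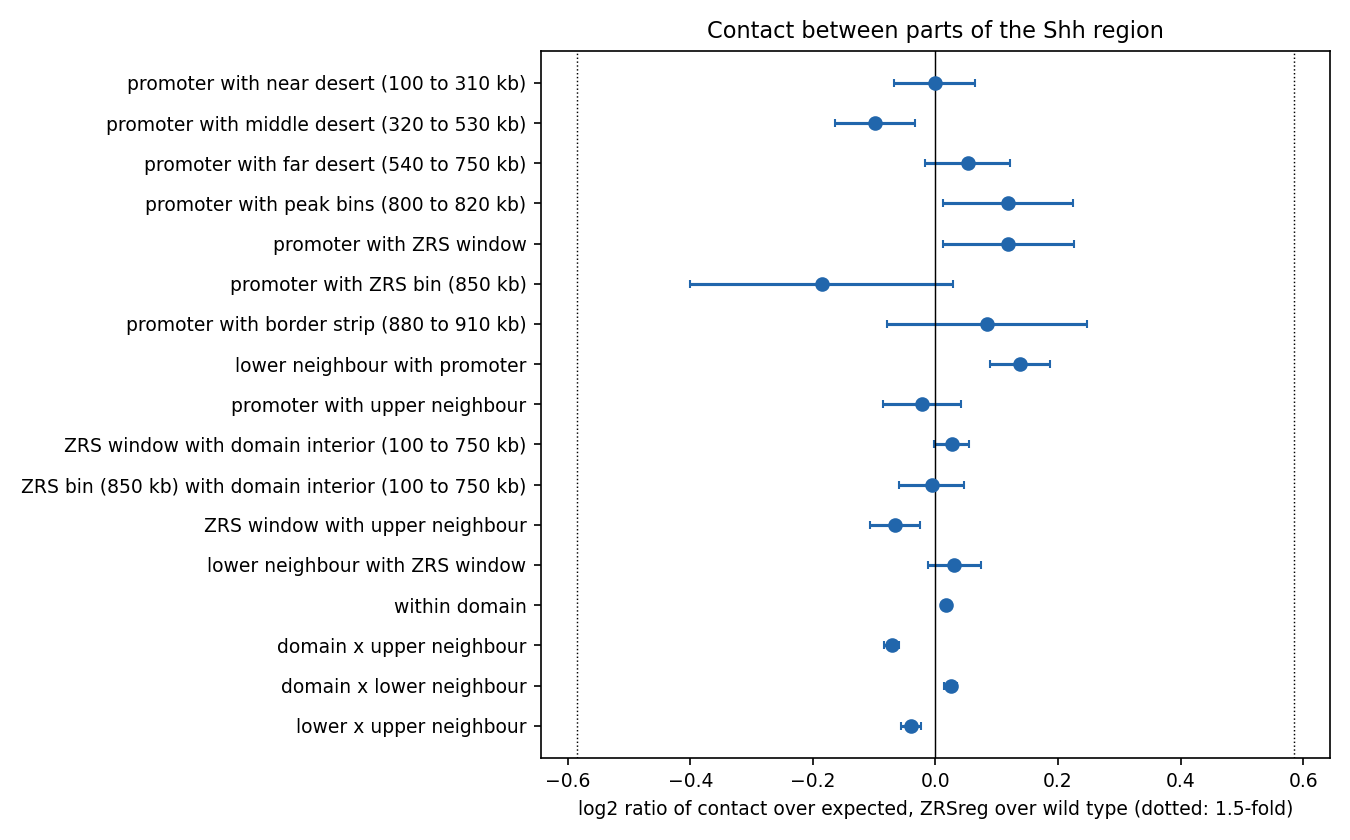
Log2 ratio of contact over expected, ZRSreg over wild type, for 17 pairs of zones, with 95% counting intervals. Every point lies inside the dotted 1.5-fold lines. The promoter with the 850 kb bin lies lowest, at -0.18, and the promoter with the 500 kb below the lower border lies highest, at 0.14.

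Both borders stayed in the same bins. Insulation, the log2 mean signal across a bin over a square of 10 by 10 bins relative to the mean of the map, was lowest at -30 and at 910 kb in each map. At the upper border (29700001 to 29710000) it was -0.82 in ZRSreg and -0.78 in wild type, a difference of -0.03 (-0.08 to 0.01). The Lmbr1 promoter deletion map had -0.59 there. At the lower border (28760001 to 28770000) it was -1.11 in ZRSreg and -1.04 in wild type, a difference of -0.07 (-0.12 to -0.01). Over 260 bins the SD of the difference was 0.045, with extremes of -0.19 at 1690 kb and 0.08 at 130 kb.

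Seen from the enhancer, the ZRS window had its strongest long-range partners beside the promoter in both maps. The bin at -20 kb had 8.60 in ZRSreg and 7.48 in wild type, the bin at -10 kb had 8.09 and 7.45, and the main promoter bin had 6.01 and 5.53. Over 267 bins at 50 kb or more, the log2 profiles had a Pearson correlation of 0.96. For the 850 kb bin alone the correlation was 0.86, over 271 bins and far fewer contacts. Its strongest partner was the bin at -10 kb in both maps.

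One stretch below the gene had more promoter contact in the mutant. Between -360 and -220 kb the promoter had a contact over expected of 1.49 in ZRSreg (1.43 to 1.54, from 2877 contacts) and 1.20 in wild type (1.16 to 1.24, from 3249 contacts), 23.5% higher. The stretch was singled out after the profile had been seen, so the difference is a description. Of its 15 bins, 13 were higher in ZRSreg and 9 had an interval above 0, counts that follow in part from that choice. Over the 271 bins at 50 kb or more from the promoter, 22 had an interval above 0 and 12 an interval below 0. The peak of the stretch, at -300 kb (28490001 to 28500000), had 2.53 in ZRSreg and 1.90 in wild type. The bin at -310 kb had 2.07 and 1.36. Without balancing the log2 ratios of these bins were 0.17 and 0.48, and the interval at -300 kb held 0.

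The same stretch took a larger share of the promoter's contacts. It received 10.4% (10.1% to 10.8%) in ZRSreg and 9.04% (8.75% to 9.34%) in wild type. Coverage of the main promoter bin was lower in the mutant, as given above, and without balancing the log2 ratio was 0.13 in place of 0.30. Its part in the result was not tested. With the ZRS window the stretch had 1.72 in ZRSreg and 1.70 in wild type, and with the domain 0.852 and 0.840. By single bins of the domain, the log2 ratio was highest with the main promoter bin, at 0.39. The stretch was chosen from the promoter's own profile, so this rank is not a separate result. Bins beside the promoter were higher too, with 0.16 at 10 kb, 0.33 at 20 kb, 0.17 at 30 kb and 0.29 at 70 kb. The bin at -20 kb had -0.06. Of the 93 domain bins, 11 had an interval above 0 and 1 an interval below 0. The 11 include both promoter bins, from whose profile the stretch was chosen. Closer to the gene the order turned, and the bin at -130 kb had 0.484 in ZRSreg and 0.723 in wild type. The Lmbr1 promoter deletion map had 0.570 there and wild type midbrain 0.604, both also below wild type limb.

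Among the other maps the level of this contact varied widely. The limb map with the i4i5 and ZRSreg deletions had 1.49, the i4i5 limb map 1.41, the Lmbr1 promoter deletion map 1.14 and the i4i5ZRS limb map 1.148. Wild type midbrain had 0.866, midbrain with the i4i5ZRS deletions 0.740, and wild type embryonic stem cells, whose titles name G4, had 1.98. Both maps of limbs without ZRSreg were thus above wild type limb and above the Lmbr1 promoter deletion limb, and so was the i4i5 map, which keeps ZRSreg.

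**Figure D5:**
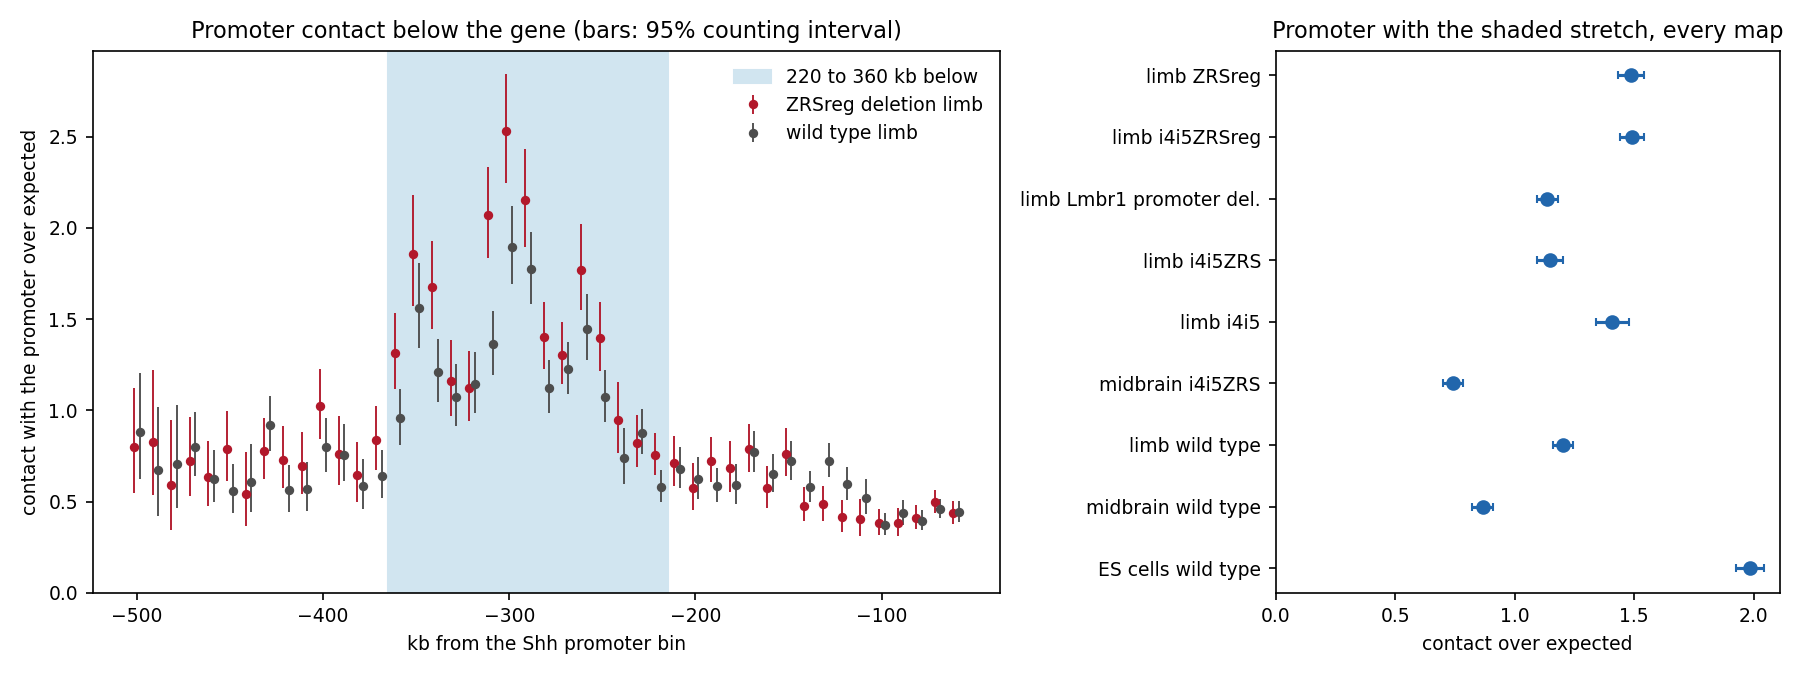
Left, contact over expected between the Shh promoter and each 10 kb bin from -500 to -60 kb in ZRSreg deletion limb (red) and wild type limb (grey), with 95% counting intervals and the stretch from -360 to -220 kb shaded. Right, mean contact of the promoter with that stretch in all 9 maps, at 1.49 in limb ZRSreg, 1.20 in limb wild type and 0.866 in midbrain wild type.

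After smoothing over 5 by 5 bins, few differences of size remained. Of 33303 positions at 100 kb or more with at least 100 contacts in each map, 9 were at least 1.5-fold higher (0.0270%) and 7 at least 1.5-fold lower (0.0210%), and the SD of the log2 ratio was 0.14. The 5 highest positions all joined bins more than 1000 kb apart. The first of them, between -600 and 1650 kb, had 1.25 in ZRSreg (131 contacts) and 0.753 in wild type (106 contacts). The fourth, between -930 and 840 kb, was the only one of these 10 extremes to touch the ZRS window, with 1.22 and 0.813. The 5 lowest also lay at long range, and 4 of them joined the desert to the region above 1300 kb. The first, between 180 and 1330 kb, had 0.434 in ZRSreg (131 contacts) and 0.689 in wild type (229 contacts).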

How the data were processed

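Limb buds were fixed, digested with DpnII, religated and captured over the Shh region, per the labels' protocols. SAMtools, Juicer, Bowtie2 2.3.4.1 and cutadapt 1.15 are listed in the submitters' processing notes with mm9 as the build. For their settings and for duplicates, the sources used here give nothing. The deposited signal is 1 value per pair of 10 kb bins, from reads of the merged samples with a mapping quality of 30 and balanced by the KR method, per the file names in the labels. Each value is the product of a contact count and 2 bin weights, and solving for the weights gave counts within 0.01 of a whole number for all pairs of all 9 maps. All further values were computed with Python 3.11.15, numpy 2.4.6 and scipy 1.17.1. Expected contact was the mean signal per separation, with unlisted pairs at 0. Intervals are exact Poisson for a level, Clopper-Pearson for a ratio and Wilson for a share, at 95%, and cover counting error only. They start from counts summed over pairs. The calculations were tested on simulated maps. Pairs were called at 1.5-fold with at least 40 contacts in both maps together. The named items are the promoter, each bin of the ZRS window, Lmbr1, both borders, the peak of each profile, the genes in order, the 10 strongest midbrain pairs at 200 kb or more and at least 50 kb apart, and the 5 highest and 5 lowest smoothed pairs. The gene order is from RefSeq's GRCm38.p6 table, whose coordinates were not used. The members and lists were chosen with earlier results of these data known.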

Additional observations from a re-analysis of the deposited data

How the results depend on the processing

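The samples of each group are merged in 1 map, so leaving out a sample could not be done. No paired analysis was possible because each group is 1 merged map without replicate columns. The 43 results were recomputed under 85 alternatives, of which 38 were chosen after seeing the data, and 51 stayed within the counting interval of the value reported or, for counts, within 1.5 times. With counts without balancing, the log2 ratio was -0.057 for promoter and ZRS window, 0.0042 within the domain, -0.0094 for ZRS window and interior, and 0.13 for promoter and lower stretch. The signal as deposited, without scaling, gave -0.10 for promoter and window, and an expected value from pairs inside the domain alone lowered the level there to 1.44 in ZRSreg and 1.42 in wild type. With the Lmbr1 promoter deletion map in place of wild type, the log2 ratio was -0.011 within the domain, -0.10 across the upper border, 0.058 across the lower border, -0.0056 for ZRS window and interior and 0.39 for the lower stretch. The upper border's insulation difference was then -0.22 and the promoter's share beyond 500 kb -0.42 percentage points. At that border the Lmbr1 promoter deletion map itself had -0.59, against -0.78 in wild type. The part of its own deletion in these values was not tested. Neighbours of 300 kb gave -0.041 above and -0.014 below. The lower stretch had 0.39 with the main promoter bin alone and 0.14 over the whole 500 kb. Pairs higher and lower numbered 77 and 102 at 2-fold, 53 and 70 at 100 contacts or more, and 4880 and 5250 with no minimum. Enriched pairs kept in ZRSreg came to 53.35% with the median per separation, 53.4% at 1.5 times, 56.7% at 3 times, 59.4% when chosen in the Lmbr1 promoter deletion map and 67.45% at 40 contacts or more, against 53.35%, 53.5%, 59.8%, 59.7% and 69.0% in wild type. The cause of these shifts was not tested. At 40 to 100 contacts in both maps together, counting error alone gives an SD of 0.38 for the log2 ratio of a pair, so most 1.5-fold differences of single pairs at that depth cannot be told from it.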
